A study of Rattus norvegicus with 6 samples.

Results

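The complement components and regulators described here are 36 genes chosen by symbol from a list that covers the classical, lectin, alternative and terminal pathways, their regulators and 2 receptors. All 36 symbols were found, in 37 rows of the 25926 in the deposited table, because Cfb occupies 2 rows. The livers came from 3 Sprague-Dawley rats given 7 days of TPN (total parenteral nutrition, feeding by vein alone) and from 3 Sprague-Dawley control rats given 0.9% saline, all labelled as 4 weeks old. The TPN rats carry the disease label PNALD (parenteral nutrition-associated liver disease) and the control rats the label normal. No transgene or gene deletion is named for either group, and each library is the liver of 1 rat by its label. How control rats were fed or cannulated is not given in the sources used here. Whether the rats of a group were separate litters or surgeries is not stated either, so p-values measure only the spread between these samples.

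Complement is a cascade of plasma proteins that tags microbes and damaged cells, draws in leukocytes and punctures membranes. The classical pathway starts when C1q binds antibody or other targets, the lectin pathway when collectins or ficolins bind sugars, and the alternative pathway from C3 itself with factors B and D. All routes meet at C3 and lead to C5 and to the membrane attack complex built from C5b to C9. Hepatocytes make most of the circulating components, while C1q and properdin come largely from macrophages and other myeloid cells. Several liver-made components, C3, C9, factor B and C4b-binding protein among them, belong to the acute-phase proteins whose synthesis follows inflammatory cytokines.

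Values are FPKM (fragments scaled to transcript length and to the mapped total), so levels of different genes can be set side by side per length. The members together held 2.33%, 2.33% and 1.73% of all FPKM in TPN 1, 2 and 3, against 1.37%, 2.31% and 1.59% in control 1, 2 and 3. C3 alone made up 29.5% to 32.8% of the members' FPKM in TPN livers and 33.0% to 34.4% in control livers. At the other end Cd55 reached at most 0.246 FPKM in any liver, and the receptors C3ar1 and C5ar1 and the terminal component C7 were low. The hepatocyte markers Alb, Ttr, Apoa1, Tf and Serpina1 were abundant in each library, none under 1552 FPKM, as the liver label requires. The measurement is of whole liver, where fewer cells of a type and less RNA per cell cannot be told apart.

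**Figure D1:**
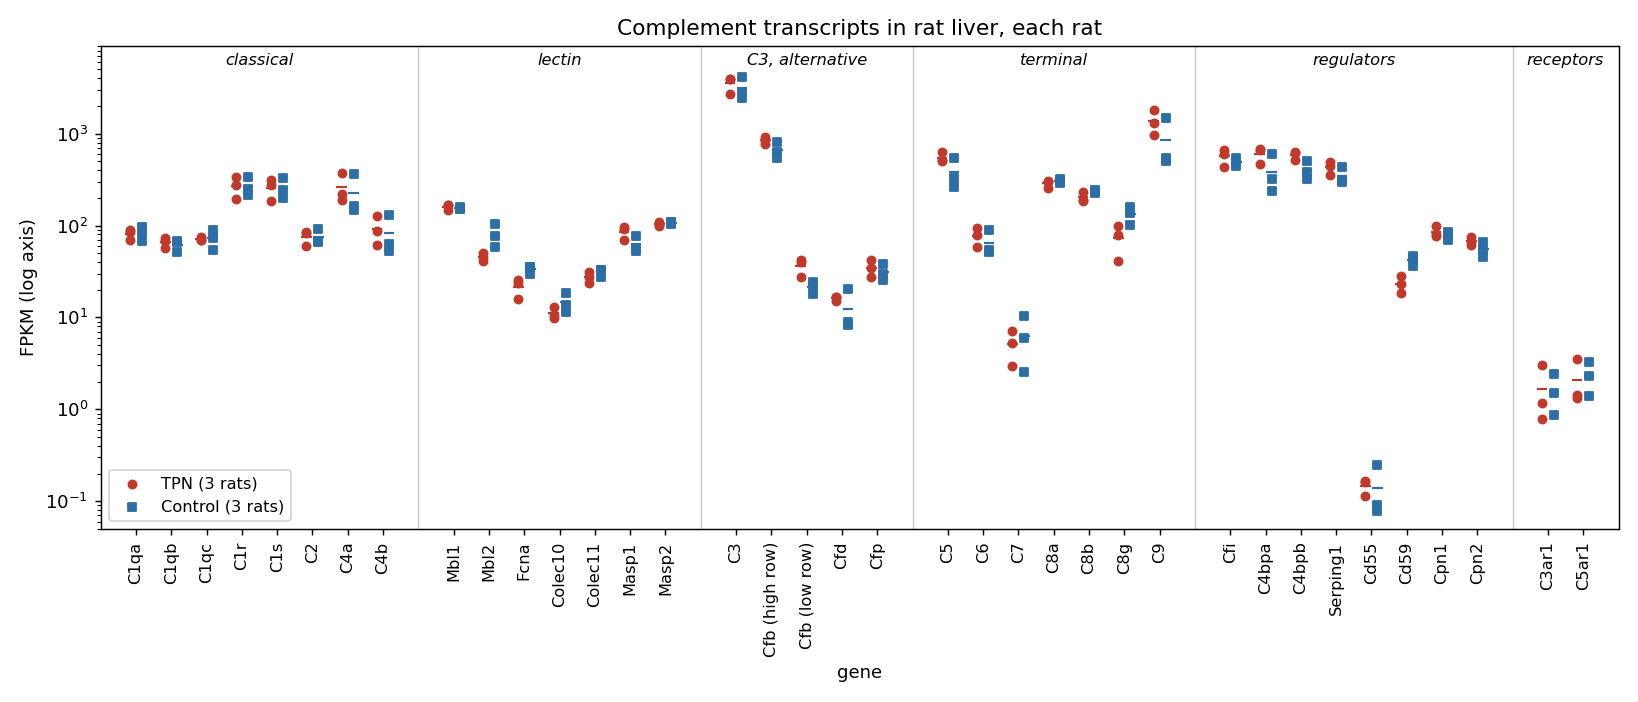
FPKM (log axis) of the 37 complement rows in each rat, grouped by role along the gene axis. Circles are TPN rats, squares are control rats and short lines are group means. C3 lies at the top between 2460.1 and 4149 FPKM, Cd55 at the bottom with at most 0.246 FPKM, and in most genes the points of the groups overlap.

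No complement member passed limma's test of TPN against control at a Benjamini-Hochberg adjusted p under 0.05 over the 11362 features that averaged at least 1 FPKM. Of those features 0.246% passed. Of the 37 rows 36 reached the minimum mean, Cd55 being the exception, and their adjusted p ran from 0.194 for Cd59 to 0.9995 for C1qc. Before adjustment, 2 member rows were higher and 4 lower with a p under 0.05, where 4.44% of all features were higher and 7.01% lower at that level. The same 6 rows were those whose groups did not overlap: 5.56% of the 36 were higher and 11.1% lower in TPN, against 8.02% and 9.09% of all features, so these shares lie near the background. The median log2 fold change over the 36 rows was 0.076, against 0.0065 over all features tested, and 22 of the 36 (61.1%) were positive, against 50.9% of all features. The 6 rows were Mbl2, Fcna, C8g and Cd59, all lower in TPN livers, and C4bpb with the less abundant Cfb row, both higher.

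**Figure D2:**
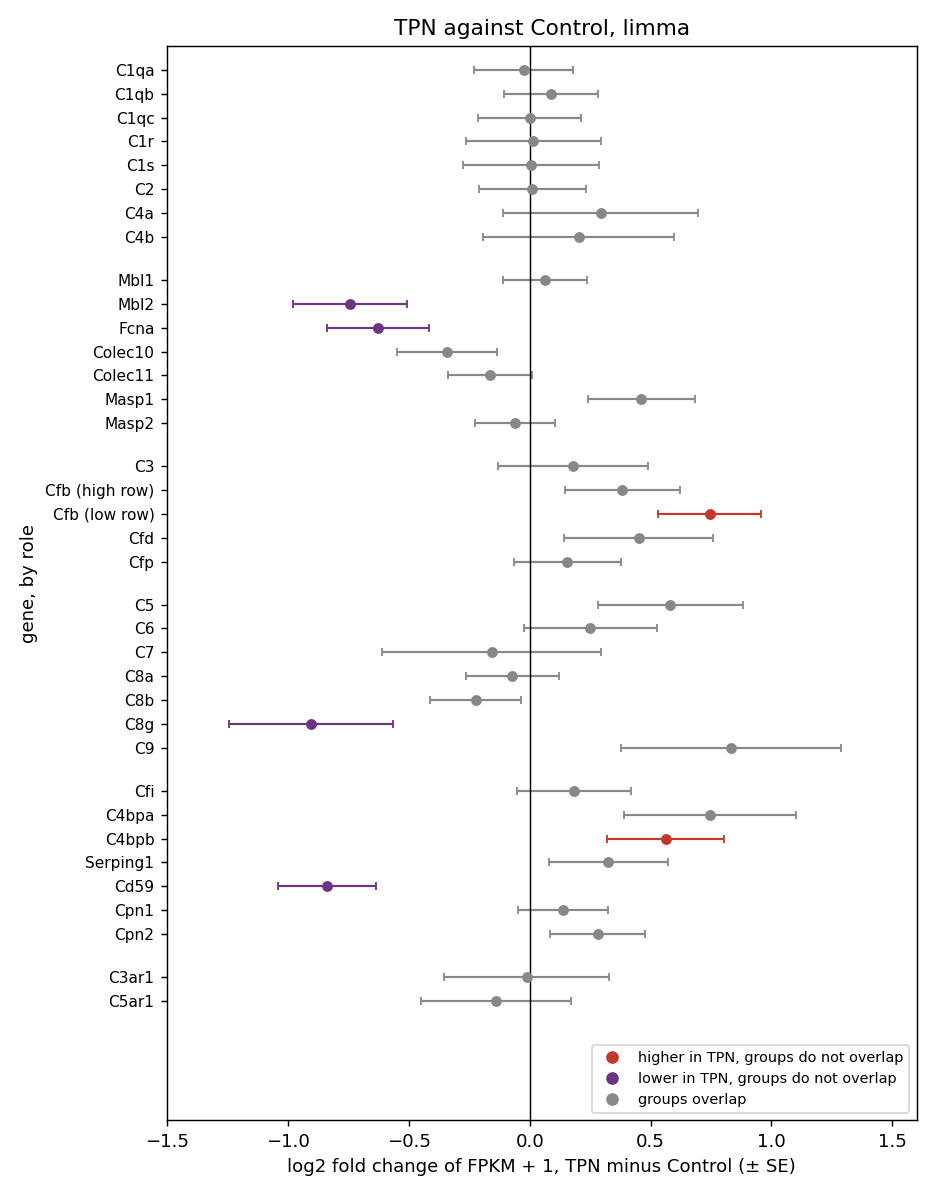
Log2 fold change of FPKM + 1 (TPN minus control, x axis) with its standard error for the 36 tested rows, grouped by role. Coloured points are the 6 rows whose groups did not overlap. The values run from -0.90 for C8g to 0.83 for C9, and the rows of the C1q chains, C1r, C1s and C2 lie between -0.025 and 0.089.

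All 8 classical pathway rows overlapped between the groups, with log2 fold changes from -0.025 to 0.29 and a median of 0.013. Overlap does not show like levels, and the limma SE was 0.40 for C4a and 0.39 for C4b. The 3 chains of C1q, the recognition molecule of the pathway, were close to each other in every liver. C1qa measured 85.3, 88.6 and 70.1 FPKM in TPN 1, 2 and 3, against 84.6, 97.4 and 67.7 FPKM in control 1, 2 and 3. For C1qb the values were 68.03, 72.4 and 56.3 FPKM in TPN 1, 2 and 3, against 65.6, 68.2 and 51.5 FPKM in control 1, 2 and 3, and C1qc lay between 54.7 and 89.5 FPKM in all 6 livers. Control 2 was the highest control and control 3 the lowest for each of the 3 chains, and the TPN values fell within or just beyond that span. The C1qb to C1qa ratio did not overlap between the groups, at 0.798, 0.818 and 0.804 in TPN 1, 2 and 3, against 0.775, 0.6997 and 0.761 in control 1, 2 and 3 (exact permutation p = 0.1, 2-sided, the smallest that 3 against 3 can give; 0.333 after Benjamini-Hochberg adjustment over 10 ratios computed, of which 3 did not overlap).

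The proteases C1r and C1s, which C1q activates and whose genes are next to each other in the RefSeq gene table of GRCr8, had nearly equal levels. C1r measured 337, 278 and 196 FPKM in TPN 1, 2 and 3, against 213, 338 and 247 FPKM in control 1, 2 and 3. C1s measured 279, 311 and 187 FPKM in TPN 1, 2 and 3, against 199, 331 and 243 FPKM in control 1, 2 and 3. The C1s to C1r ratio averaged 0.966 ± 0.145 in TPN livers and 0.966 ± 0.0242 in control livers (SD, n = 3 each), and TPN 3 was the lowest liver of its group for both genes. C2, the protease that joins C4b in the C3 convertase, lay between 59.9 and 84.8 FPKM in TPN livers and between 66.1 and 92.4 FPKM in control livers.

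C4a and C4b, copies of the gene for component C4, varied more between rats than between groups. C4a measured 223, 377 and 189 FPKM in TPN 1, 2 and 3, against 147, 360.5 and 162 FPKM in control 1, 2 and 3. C4b measured 60.9, 126 and 86.6 FPKM in TPN 1, 2 and 3, against 52.7, 130.4 and 62.9 FPKM in control 1, 2 and 3. TPN 2 and control 2 had the highest values of both copies. The 250 bases upstream of the 2 genes in the RefSeq table (GRCr8) align over 249 columns with 92.0% identity. The likeness of the transcripts themselves was not measured. Copies of a gene can share reads, so the split of FPKM between C4a and C4b is uncertain.

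In the lectin pathway Mbl2 and Fcna were lower in every TPN liver than in any control liver, while Mbl1 and Masp2 hardly varied. Mbl2 encodes mannose-binding lectin C, a liver-made collectin that binds microbial sugars. It measured 41.0, 50.6 and 45.4 FPKM in TPN 1, 2 and 3, against 103, 57.8 and 76.3 FPKM in control 1, 2 and 3. The groups did not overlap, and the means were 45.7 ± 4.79 FPKM in TPN livers and 78.96 ± 22.6 FPKM in control livers (SD, n = 3; limma log2 fold change of -0.74 with an SE of 0.24, adjusted p = 0.312). Control 1 was the highest liver and control 2 the nearest to the TPN livers. Fcna encodes ficolin A, a lectin that in mouse is made by macrophages of liver and spleen. Its values were 15.9, 25.4 and 23.6 FPKM in TPN 1, 2 and 3, against 35.5, 35.2 and 29.7 FPKM in control 1, 2 and 3. The TPN values were all under the lowest control, with means of 21.6 ± 5.08 FPKM in TPN livers and 33.4 ± 3.28 FPKM in control livers (SD, n = 3; limma log2 fold change of -0.63 with an SE of 0.21, adjusted p = 0.334).

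Mbl1, which encodes the other mannose-binding lectin of rodents, measured 169, 166 and 147 FPKM in TPN 1, 2 and 3, against 159, 151 and 150.0 FPKM in control 1, 2 and 3. The ratio of Mbl2 to Mbl1 was 0.243, 0.305 and 0.308 in TPN 1, 2 and 3, against 0.644, 0.383 and 0.509 in control 1, 2 and 3. Since Mbl1 hardly varied, this ratio largely repeats the Mbl2 values, and its groups did not overlap (exact permutation p = 0.1, adjusted 0.333 over 10 ratios). Masp2, the protease that cuts C4 and C2 once a lectin binds, stayed between 98.7 and 110.4 FPKM in all 6 livers. Masp1, the protease that activates Masp2, measured 96.01, 92.1 and 69.6 FPKM in TPN 1, 2 and 3, against 53.1, 77.5 and 56.5 FPKM in control 1, 2 and 3. TPN 3 lay under control 2, so its groups overlapped (limma log2 fold change of 0.46 with an SE of 0.22, adjusted p = 0.479). The collectins Colec10 and Colec11 overlapped as well, with means of 11.1 ± 1.67 FPKM in TPN livers and 14.6 ± 3.71 FPKM in control livers for Colec10 and 27.6 ± 3.76 FPKM in TPN livers and 30.97 ± 3.09 FPKM in control livers for Colec11 (SD, n = 3).

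The sequences upstream of Mbl2 and Fcna are shown because these lectin genes were lower in TPN without overlap. Each is the 250 bases before the start of the gene in the RefSeq promoter table, 5′ to 3′ on the gene's strand, at chr1:237430793-237431042 (plus strand) for Mbl2 and chr3:28847238-28847487 (minus strand) for Fcna in GRCr8, a later build than the Rnor_6.0 of the submitters' processing notes.
Mbl2: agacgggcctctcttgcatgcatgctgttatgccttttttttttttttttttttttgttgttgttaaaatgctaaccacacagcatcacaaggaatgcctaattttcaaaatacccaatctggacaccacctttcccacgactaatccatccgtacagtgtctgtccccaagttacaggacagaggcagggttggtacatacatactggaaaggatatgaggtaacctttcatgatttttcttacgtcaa
Fcna: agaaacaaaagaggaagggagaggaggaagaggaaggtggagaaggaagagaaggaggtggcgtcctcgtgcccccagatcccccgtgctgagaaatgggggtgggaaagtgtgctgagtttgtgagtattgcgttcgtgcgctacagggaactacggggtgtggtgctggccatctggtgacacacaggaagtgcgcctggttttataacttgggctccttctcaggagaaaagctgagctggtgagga
Both are wholly in lower case, since neither holds any of 3 motifs searched on both strands in these 250 bases. The motifs were TTCNNNGAA, bound by STAT factors, TTGCNNAA, a C/EBP-type motif, and GGGANNTTCC, a kappa-B-type motif, of which the first and second can overlap. They occur in 7.52%, 9.2% and 1.07% of the 27457 upstream windows of the table. Absence of these letters from the window says nothing about binding of the factors. The table matched 23 of the 36 members by symbol, and C8g, Cd59 and Cfb are not among them.

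C3 and the alternative pathway had positive log2 fold changes in all 5 rows, from 0.16 to 0.74, and the groups overlapped in 4. C3, the protein at which all pathways meet, measured 3897, 3950.0 and 2698 FPKM in TPN 1, 2 and 3, against 2460.1, 4149 and 2808 FPKM in control 1, 2 and 3. Control 2 held the highest value and control 1 the lowest, with TPN 3 under control 3 (limma log2 fold change of 0.18 with an SE of 0.31, adjusted p = 0.88). Leaving out 1 rat moved the C3 value to between 0.021 (without control 1) and 0.398 (without control 2). Cfb encodes factor B, the protease of the alternative C3 convertase. Its abundant row (ENSRNOG00000051158) measured 854, 926 and 779.6 FPKM in TPN 1, 2 and 3, against 539, 809 and 637 FPKM in control 1, 2 and 3. TPN 3 lay under control 2 (limma log2 fold change of 0.38 with an SE of 0.24, adjusted p = 0.597). The less abundant row (ENSRNOG00000000419) measured 27.7, 40.4 and 41.7 FPKM in TPN 1, 2 and 3, against 22.0, 17.8 and 24.0 FPKM in control 1, 2 and 3. In this row every TPN liver was above every control liver (limma log2 fold change of 0.74 with an SE of 0.21, adjusted p = 0.262).

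The files do not show what sets the Cfb rows apart, and reads could be split between them, so neither is a measure of the whole gene. Summed, the rows gave a log2 fold change of 0.40 (SE 0.23, limma adjusted p = 0.571) and the groups overlapped. Cfd encodes factor D (adipsin), which cuts factor B and is made mostly by fat cells. It measured 15.0, 16.6 and 16.7 FPKM in TPN 1, 2 and 3, against 8.85, 20.2 and 8.36 FPKM in control 1, 2 and 3. The TPN livers were close together, while control 2 was above all of them and the other controls were below. Of the other fat cell markers, Plin1, Adipoq and Lep were at 0 FPKM in all 6 livers, while Fabp4, which macrophages and endothelial cells also express, measured 13.5, 9.02 and 3.06 FPKM in TPN 1, 2 and 3, against 5.63, 7.78 and 6.701 FPKM in control 1, 2 and 3. Cfp, which encodes properdin, the stabiliser of the alternative convertase, lay between 27.5 and 41.9 FPKM in TPN livers and between 25.4 and 38.0 FPKM in control livers.

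In the terminal pathway C8g was lower in every TPN liver than in any control liver, while the groups overlapped in C8a and C8b, the genes of the other chains of the protein. C8g encodes the gamma chain, a lipocalin that is not homologous to the pore-forming alpha and beta chains. It measured 41.3, 79.1 and 99.7 FPKM in TPN 1, 2 and 3, against 159, 101 and 137 FPKM in control 1, 2 and 3. TPN 1 was the lowest liver, and TPN 3, the highest of its group, was just under control 2. Without TPN 1 the log2 fold change was -0.54 (limma adjusted p = 0.399). The means were 73.4 ± 29.6 FPKM in TPN livers and 132 ± 29.2 FPKM in control livers (SD, n = 3; limma log2 fold change of -0.90 with an SE of 0.34, adjusted p = 0.378). C8a, the alpha chain, measured 297, 308 and 257 FPKM in TPN 1, 2 and 3, against 289, 318 and 298 FPKM in control 1, 2 and 3. C8b, the beta chain, measured 187, 232 and 191 FPKM in TPN 1, 2 and 3, against 229, 239 and 242 FPKM in control 1, 2 and 3, with TPN 2 inside the control range (limma log2 fold change of -0.22 with an SE of 0.19, adjusted p = 0.709).

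The C8g to C8a ratio was 0.139, 0.257 and 0.387 in TPN 1, 2 and 3, against 0.548, 0.317 and 0.459 in control 1, 2 and 3. TPN 3 lay above control 2 in this ratio, so the groups overlapped (exact permutation p = 0.2, adjusted 0.4 over 10 ratios). For C8b to C8a the ratio was 0.628, 0.755 and 0.742 in TPN 1, 2 and 3, against 0.79, 0.751 and 0.815 in control 1, 2 and 3, a narrower span in which TPN 2 lay just above control 2 (exact permutation p = 0.2, adjusted 0.4). The genes C8b and C8a are neighbours in the RefSeq gene table of GRCr8, whereas C8g lies on another chromosome.

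C9, which polymerises into the membrane pore, had the largest positive log2 fold change of the members and also a wide spread among controls. It measured 1820.3, 1317 and 966 FPKM in TPN 1, 2 and 3, against 502, 1484 and 549 FPKM in control 1, 2 and 3. All TPN livers were above control 1 and control 3, and control 2 was above TPN 2 and TPN 3 (limma log2 fold change of 0.83 with an SE of 0.45, adjusted p = 0.535). C5, the precursor of the attractant C5a and of C5b, which starts the pore, measured 504, 624 and 510.5 FPKM in TPN 1, 2 and 3, against 262, 549 and 332 FPKM in control 1, 2 and 3. Here too control 2 was above TPN livers, namely TPN 1 and TPN 3 (limma log2 fold change of 0.58 with an SE of 0.30, adjusted p = 0.512). C6, which binds C5b, ranged from 58.0 to 94.04 FPKM in TPN livers and from 52.0 to 89.9 FPKM in control livers. The C9 to C6 ratio was 19.4, 16.7 and 16.6 in TPN 1, 2 and 3, against 9.27, 16.5 and 10.6 in control 1, 2 and 3. Its groups did not overlap, by a margin of 16.6 in TPN 3 over 16.5 in control 2 (exact permutation p = 0.1, adjusted 0.333). C7, the next protein of the pore, was low, at 2.94 to 7.16 FPKM in TPN livers and 2.57 to 10.4 FPKM in control livers.

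Among the regulators, Cd59 was lower and C4bpb higher in every TPN liver than in any control liver. Cd59 encodes a membrane protein that blocks the insertion of C9 into the cell's own membrane. It measured 18.7, 22.9 and 28.3 FPKM in TPN 1, 2 and 3, against 44.1, 36.1 and 46.1 FPKM in control 1, 2 and 3. The means were 23.3 ± 4.81 FPKM in TPN livers and 42.1 ± 5.28 FPKM in control livers (SD, n = 3), a 1.81-fold higher level in control livers, and the adjusted p was the smallest of the members (limma log2 fold change of -0.84 with an SE of 0.20, adjusted p = 0.194). Sample weights in limma, which lower the weight of libraries that deviate, gave a log2 fold change of -0.91 and an adjusted p of 0.0302 in that fit, in which 2.63% of all features passed. It was the only setting of 19 tried in which a member passed. Under the other 18 settings the adjusted p of Cd59 did not reach the threshold. The RefSeq gene table lists the symbol Cd59 as an older name of Cd59b, and a rodent paralog could share reads with it.

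C4bpa and C4bpb encode the alpha and beta chains of C4b-binding protein, a plasma inhibitor that helps factor I cut C4b. C4bpb measured 637, 611 and 523 FPKM in TPN 1, 2 and 3, against 324, 509.9 and 382 FPKM in control 1, 2 and 3. TPN 3 was close above control 2, and the means were 590.4 ± 59.9 FPKM in TPN livers and 405 ± 95.2 FPKM in control livers (SD, n = 3; limma log2 fold change of 0.56 with an SE of 0.24, adjusted p = 0.434). C4bpa measured 679, 672 and 472 FPKM in TPN 1, 2 and 3, against 240.3, 594 and 319.7 FPKM in control 1, 2 and 3. Control 2 was above TPN 3, so the groups overlapped (limma log2 fold change of 0.74 with an SE of 0.35, adjusted p = 0.478). The chains followed the same order of livers within each group, with TPN 1 highest and TPN 3 lowest among TPN livers, and control 2 highest and control 1 lowest among control livers. The C4bpb to C4bpa ratio was 0.985 ± 0.107 in TPN livers and 1.13 ± 0.250 in control livers (SD, n = 3).

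The upstream sequences of these chains are shown because their genes varied together across the livers. They lie at chr13:44663472-44663721 (minus strand) for C4bpa and chr13:44683782-44684031 (minus strand) for C4bpb in GRCr8, and capitals mark a motif match.
C4bpa: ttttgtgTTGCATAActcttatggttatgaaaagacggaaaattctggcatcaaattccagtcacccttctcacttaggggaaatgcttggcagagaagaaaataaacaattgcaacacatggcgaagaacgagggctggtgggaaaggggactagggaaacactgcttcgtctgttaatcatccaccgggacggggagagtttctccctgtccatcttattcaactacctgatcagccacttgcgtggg
C4bpb: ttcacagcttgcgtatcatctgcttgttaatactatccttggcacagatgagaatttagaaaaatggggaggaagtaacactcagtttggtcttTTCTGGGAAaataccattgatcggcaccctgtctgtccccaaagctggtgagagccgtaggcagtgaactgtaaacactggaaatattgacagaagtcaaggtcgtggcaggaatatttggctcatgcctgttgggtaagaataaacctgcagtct
In C4bpa the match is to the C/EBP-type motif, 243 to 236 bases before the gene's start, and in C4bpb to the STAT motif, 156 to 148 bases before it. Among the 23 matched members, 6 windows (26.1%, against 9.2% of all windows) held the C/EBP-type motif, in C1r, C3, C4bpa, C6, C8a and C8b. The STAT motif was in 3 windows (13.0%, against 7.52%), those of C1qa, C4bpb and C8a, and the kappa-B-type motif in 0 (against 1.07%). These differences in share were not tested. Members with and without a match thus include genes that overlapped between the groups, and a match does not make a site.

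The other regulators overlapped between the groups. Cfi encodes factor I, the protease that inactivates C3b and C4b, and measured 438, 655 and 606 FPKM in TPN 1, 2 and 3, against 447, 543 and 488 FPKM in control 1, 2 and 3 (limma log2 fold change of 0.18 with an SE of 0.24, adjusted p = 0.824). Leaving out 1 rat moved the Cfi value to between 0.069 (without TPN 2) and 0.359 (without TPN 1). Serping1, which encodes the C1 inhibitor, ranged from 354 to 497 FPKM in TPN livers and from 296 to 436 FPKM in control livers. Its order of livers was that of the C4bp chains. The subunits of carboxypeptidase N, which trims C3a and C5a, measured 77.2 to 99.9 FPKM (Cpn1) and 60.7 to 74.2 FPKM (Cpn2) in TPN livers, against 69.7 to 84.5 FPKM (Cpn1) and 45.8 to 66.1 FPKM (Cpn2) in control livers. Cd55, which speeds the decay of C3 convertases on cell surfaces, was under the minimum level and was not tested, at 0.113 to 0.165 FPKM in TPN livers and 0.0777 to 0.246 FPKM in control livers. The receptors for C3a and C5a, found on myeloid cells, were near the minimum too. C3ar1 measured 3.01, 0.789 and 1.19 FPKM in TPN 1, 2 and 3, against 1.503, 2.43 and 0.876 FPKM in control 1, 2 and 3, and C5ar1 3.52, 1.32 and 1.42 FPKM in TPN 1, 2 and 3, against 2.31, 3.26 and 1.402 FPKM in control 1, 2 and 3. TPN 1 and control 2 held the highest values of both receptors.

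**Figure D3:**
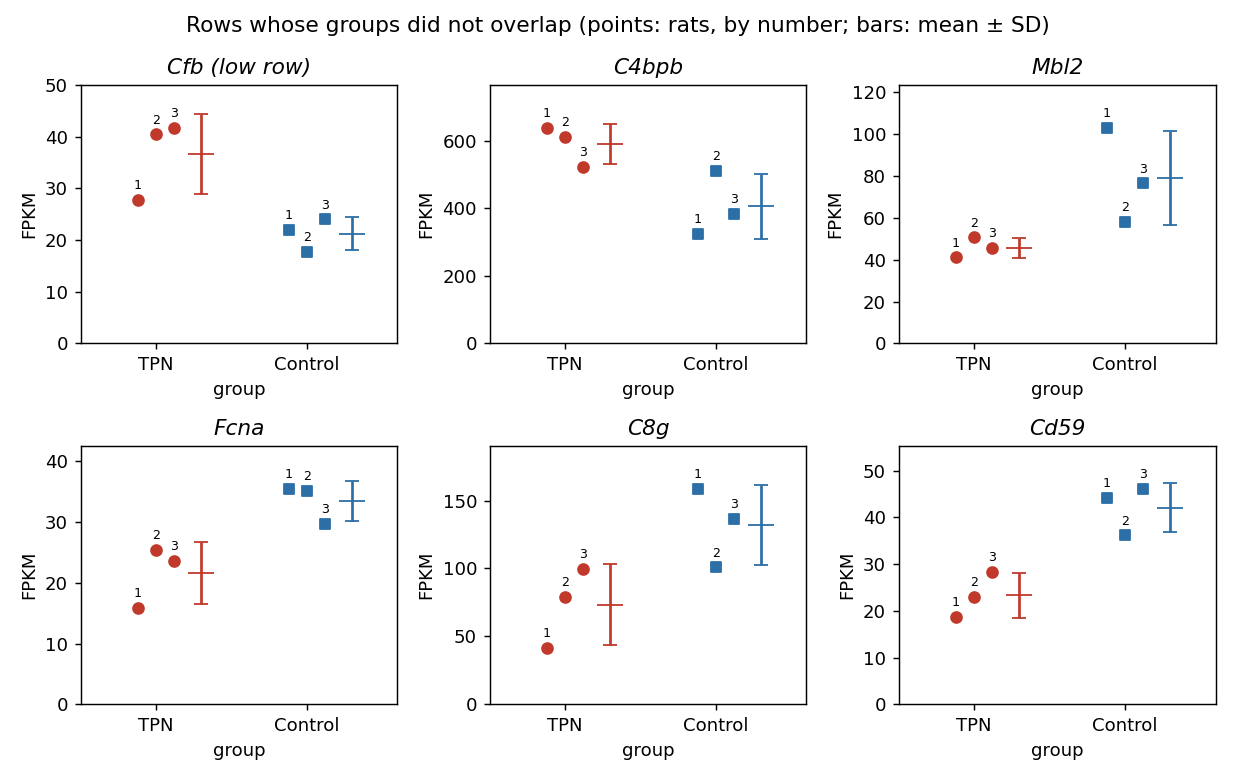
FPKM (y axis, from 0) of the 6 rows whose groups did not overlap. Points are rats with their numbers, TPN left and control right, and bars are the mean ± SD of 3 rats. In C4bpb and C8g the gap between the nearest rats of the groups is small, with 523 FPKM in TPN 3 and 509.9 FPKM in control 2 for C4bpb.

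A further list of 28 genes of the pathway, which held further membrane regulators, receptors and soluble inhibitors, was read in the same fit. The table held 25 of them and 16 reached the minimum mean. None passed limma's test over all features (1 had an unadjusted p under 0.05, against 11.4% of all features). Of the 16, 12 were positive, against 50.9% of all features. Without overlap 1 was higher and 1 lower, against 8.02% and 9.09% of all features. The row without overlap and higher was Cpb2, a plasma carboxypeptidase that can inactivate C5a, at 480.0, 435 and 410.3 FPKM in TPN 1, 2 and 3, against 364, 362 and 365 FPKM in control 1, 2 and 3 (limma log2 fold change of 0.28 with an SE of 0.19, adjusted p = 0.63). The lower one was C1rl, a C1r-like protease, at 25.4, 27.2 and 25.8 FPKM in TPN 1, 2 and 3, against 32.1, 38.6 and 32.5 FPKM in control 1, 2 and 3 (limma log2 fold change of -0.38 with an SE of 0.16, adjusted p = 0.42). Vtn (vitronectin) and Clu (clusterin), plasma inhibitors of the membrane pore, measured 2109.7 ± 217 FPKM in TPN livers and 1952 ± 246 FPKM in control livers for Vtn and 509.8 ± 48.6 FPKM in TPN livers and 441 ± 79.5 FPKM in control livers for Clu (SD, n = 3). Cr1l, a membrane regulator of rodents (Crry in mouse), ranged from 15.7 to 19.7 FPKM in TPN livers and from 16.0 to 18.5 FPKM in control livers, and Cd46 reached at most 0.437 FPKM in any liver.

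Control 2 stood apart from the other controls across the members. It was the highest control in 28 of the 37 rows (75.7%), including all 8 classical rows, whereas it was the highest control in 25.9% of all features tested. Its level was a median of 1.396 times the mean of control 1 and control 3 over the member rows, and 0.920 times over all features. TPN 3 was the lowest TPN liver in 20 of the 37 rows (54.1%), against 17.6% of all features. The listed acute-phase genes, none of them a member, also had their highest control values in control 2. Crp is both in this list and in the further pathway list. The mean log2(FPKM + 1) of 14 such genes, Lcn2, Hp and Fga among them, was 12.2, 10.35 and 10.3 in TPN 1, 2 and 3, against 8.89, 10.9 and 9.16 in control 1, 2 and 3. On that scale control 2 lay above TPN 2 and TPN 3. The TPN 2 mean includes Hamp, at 2.01 FPKM in TPN 2 against 711 FPKM in control 2, and a mean without Hamp was not taken. Of the 14 genes 12 had a positive limma log2 fold change and 2 a negative one, Hamp (-2.81) and Crp (-0.42). The part of this difference between control rats in the complement results was not tested beyond leaving rats out.

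**Figure D4:**
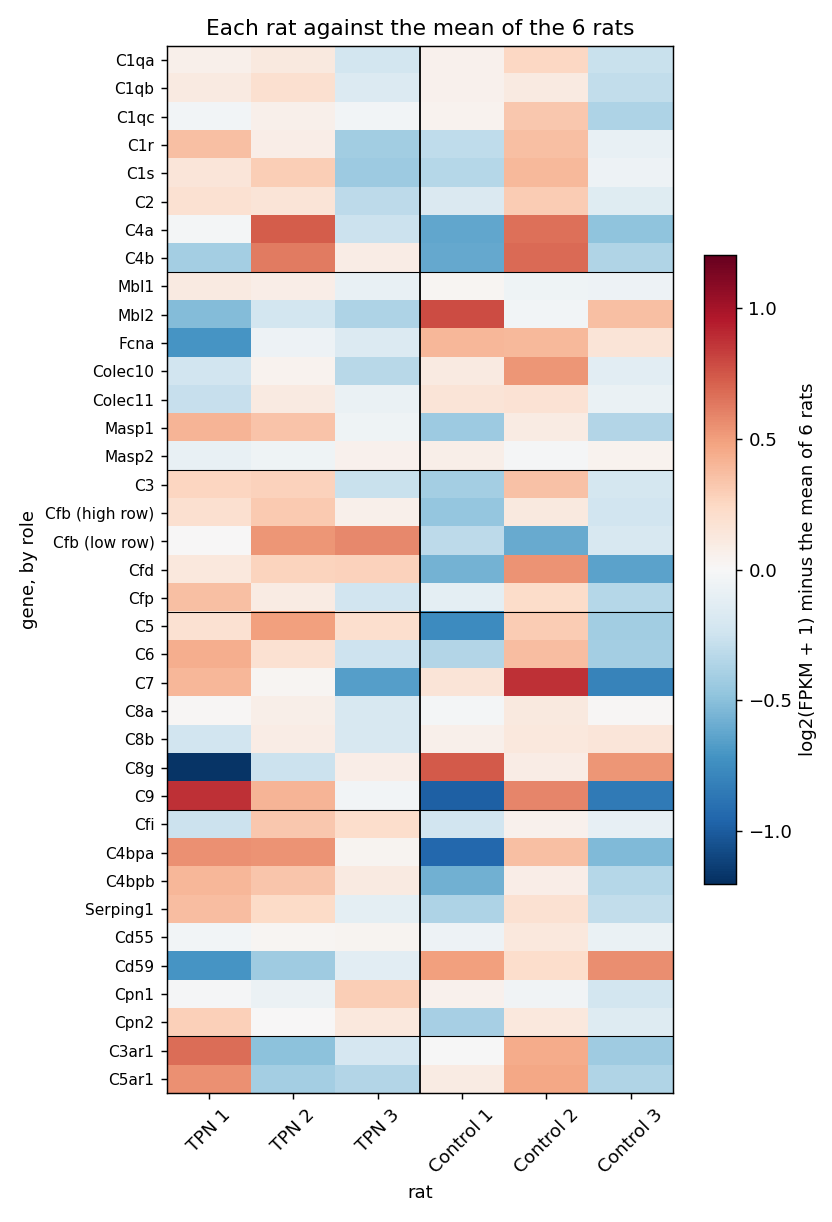
Log2(FPKM + 1) of each member row in each rat minus the mean of that row over the 6 rats, with rats on the x axis and genes by role on the y axis. Control 2 is mainly red while control 1 and control 3 are mainly blue, and in Mbl2, Fcna and Cd59 all 3 TPN rats are blue.

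Without control 2, 12 member rows lay wholly higher and 4 wholly lower in TPN, or 33.3% and 11.1% of 36, against 13.8% and 19.1% of all features. The 12 were C4a, Masp1, both Cfb rows, Cfd, C5, C6, C9, C4bpa, C4bpb, Serping1 and Cpn2. In that fit the log2 fold change was 1.33 for C9, 1.11 for C4bpa and 0.88 for C5, and no member passed over all features. Without control 1 the same values were 0.55 for C9, 0.46 for C4bpa and 0.35 for C5, and that of the abundant Cfb row was 0.25. Without TPN 3 there were 7 higher and 5 lower rows (19.4% and 13.9%, against 10.2% and 19.8% of all features). With control 2 and TPN 1 both left out there were 14 higher and 4 lower rows (38.9% and 11.1%, against 24.3% and 23.1%). Leaving out a rat can only add rows without overlap, which is why the shares of all features stand beside these counts. Control 2 was the highest control more often among member rows than among all features. Leaving it out thus favours higher rows among the members, and the shares of all features do not correct for that. Of the 6 rows apart in all rats, the unadjusted p of Cd59 and of the less abundant Cfb row stayed under 0.05 with each rat left out in turn. It reached 0.057 for Mbl2 and 0.0592 for Fcna without control 1, 0.0941 for C8g without control 1 and 0.186 for C4bpb without control 1.

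Of the 10 Kupffer cell and macrophage markers 9 were in the table, and none passed limma's test over all features. Before adjustment 3 of the 9 had a limma p under 0.05, against 11.4% of all features. Of the 9, 8 were positive, against 50.9% of all features, and 3 were higher in TPN without overlap, namely Marco, Cd68 and Cd163. Over all features 8.02% were higher and 9.09% lower without overlap. The summed level of the macrophage markers ran from 432 to 703 FPKM in TPN livers and from 328 to 508 FPKM in control livers. Marco, a scavenger receptor of Kupffer cells, measured 169, 142 and 95.7 FPKM in TPN 1, 2 and 3, against 73.98, 67.1 and 62.5 FPKM in control 1, 2 and 3 (limma log2 fold change of 0.95 with an SE of 0.24, adjusted p = 0.206). Cd68 averaged 27.6 FPKM in TPN livers and 17.5 FPKM in control livers, and Cd163 28.5 FPKM and 19.4 FPKM. Clec4f, a Kupffer cell lectin and the only negative marker of the 9, measured 89.3, 90.9 and 80.5 FPKM in TPN 1, 2 and 3, against 103, 135 and 83.8 FPKM in control 1, 2 and 3. Fcna was lower in TPN livers beside these values, and the C1q chains were not apart. Neutrophil markers summed to 14.3 to 41.4 FPKM in TPN livers and 6.16 to 25.5 FPKM in control livers, with Mpo and Elane under 0.2 FPKM in each. Hepatocyte markers summed to 39325 to 66623 FPKM in TPN livers and 59270.0 to 79720.0 FPKM in control livers. Alb was the largest part of each sum, at 12828 to 39337 FPKM in TPN livers and 32506 to 48388 FPKM in control livers. Of the 7 hepatocyte markers tested 4 were negative and 3 positive, and none passed. One of them, Ttr (transthyretin), was lower in TPN without overlap, at 1552, 3140.0 and 2829.6 FPKM in TPN 1, 2 and 3, against 8528, 4225 and 7615 FPKM in control 1, 2 and 3 (limma log2 fold change of -1.44 with an SE of 0.40, adjusted p = 0.242), a larger size than that of any complement row. Of the 4 erythroid markers 3 were in the table, and all 3 passed limma's test and were lower in TPN without overlap. Their summed level ran from 187 to 455 FPKM in TPN livers and from 1672 to 1865 FPKM in control livers, and the log2 fold change was -2.55 for Hbb, the beta chain of haemoglobin (SE 0.30, adjusted p = 0.0353). No feature, these markers included, passed without a filter on low values, after median-ratio or quantile scaling, or without TPN 3. Both tested bile duct markers, Krt19 and Epcam, were lower in TPN without overlap and did not pass (adjusted p = 0.399 and 0.262), and the 6 genes of that list summed to 6.42 to 8.14 FPKM in TPN livers and 10.7 to 14.02 FPKM in control livers. No endothelial or stellate cell marker passed, with 6 and 7 tested (0 and 1 with an unadjusted p under 0.05). The stellate marker with such a p was Lrat, lower in TPN without overlap. It measured 2.68, 5.24 and 5.86 FPKM in TPN 1, 2 and 3, against 15.5, 11.5 and 13.7 FPKM in control 1, 2 and 3 (limma log2 fold change of -1.42 with an SE of 0.25, adjusted p = 0.0882). Of the 7 stellate markers tested 3 were positive and 4 negative. T, NK and B cell markers were all under the minimum mean. The part of these markers in the complement results was not tested.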

How the data were processed

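RNA-seq values of 3 TPN and 3 control rat livers, grouped by their titles, were read from 1 deposited table of FPKM, a unit in which the authors divided fragments by transcript length and mapped total. Per the submitters' processing notes, Bowtie 0.12.2, Cufflinks and the build Rnor_6.0 were used. The sources used here give neither their order nor strandedness nor the treatment of shared reads. FPKM summed to between 509630.0 and 544670.0 per sample. Low values (under 0.3 FPKM) showed no steps of whole reads, with at most 0.853% of ratios in a bin of 0.01 (log2), so depth is unknown and no counting interval is given.

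Features averaging at least 1 FPKM were tested on log2(FPKM + 1) with limma 3.58.1 under R 4.3.3 with statmod 1.5.0, using trend and robust moderation and no term but the group. P-values were 2-sided, with Benjamini-Hochberg adjustment over 11362 features at 0.05. Fold changes of low genes are understated on this scale. Members and lists were chosen with earlier results of these data known. Values in each rat were to be given for rows without overlap, rows with an unadjusted p under 0.05 and the 5 most abundant; others were added to complete a protein or pathway, after their values were seen. In data simulated for TPN against control on 11362 features, the test found 23 of 100 genes changed by 1 and 89 of 100 changed by 2 on the log2 scale, with 9 false calls. Changes were put on well expressed genes only, and noise was drawn independently for each gene and rat. No simulated rat deviated over many genes together, so these counts do not cover a spread such as that of control 2. A planned correlation of members with the acute-phase mean is not reported, since 6 livers in 2 groups do not allow it within groups. Values of some genes of the further pathway list are not reported here. Same-numbered rats were not paired by the labels. Sequences came from RefSeq (GRCr8). Alternatives were pseudocounts of 0.1 and 0.01, other filters (none, 0.1 and 5 FPKM), median-ratio, quantile and TPM scaling, plain moderation, sample weights, a replicate block, summed symbols and rats left out. Figures were drawn with matplotlib 3.10.9.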

Additional observations from a re-analysis of the deposited data

How the results depend on the processing

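Depth is unknown, and 3 rats per group limit the precision. The count of all features past the threshold was 28 and moved to 18 and 5 with pseudocounts of 0.1 and 0.01, 0 without a filter (1179 at an unadjusted p under 0.05), 6 with a minimum mean of 5 FPKM, 0 after median-ratio scaling (1558 unadjusted) or quantile normalisation (1591 unadjusted), 8 without trend and robust settings, 299 with sample weights, 58 with the replicate block and 122 with control 2 and TPN 1 left out together. Leaving out 1 rat gave 0 to 46. Members past the threshold were 0 in each of 19 alternatives except sample weights, where 1 passed (Cd59, log2 fold change -0.91). Members at an unadjusted p under 0.05 were 6, and 14 with sample weights, 13 with control 2 and TPN 1 left out together and 2 to 10 with 1 rat left out (2 without control 1, 10 without control 2). Of all features 11.4% had such a p, and 22.6% with sample weights, 15.3% with both rats left out, 5.62% without control 1 and 12.7% without control 2. Member rows without overlap were 6, and 18 with control 2 and TPN 1 left out together and 7 to 16 with 1 rat left out (16 without control 2, 12 without TPN 3). The shares of all features rose too, from 8.02% higher and 9.09% lower to 24.3% and 23.1% with both rats left out. They were 13.8% and 19.1% without control 2, and 10.2% and 19.8% without TPN 3. After median-ratio scaling 5 of the original 6 were apart, C4bpb being the exception. The members' median of 0.076 ranged from 0.0016 to 0.213. Of 36 rows 12 changed sign in at least 1 alternative, with a size of at most 0.20 in the fit as reported, at most 0.24 with the opposite sign and up to 0.85 with the original sign (C4b, with control 2 and TPN 1 left out together). The scalings moved the median of all features to at most 0.028. In the paired check, deviations of same-numbered rats correlated at -0.214, -0.143 and 0.321, and not every rat correlated best with its own number. With 3 rats per group these correlations constrain each other, so the check cannot decide whether the numbers pair the rats. With the replicate block 0 members passed the threshold and 5 had an unadjusted p under 0.05, C4bpb being at 0.0877 against 0.0489 without it.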
